A study of Mus musculus with 12 samples.

Results

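The response of the mouse striatum to occlusion was read from a comparison of 2 groups of libraries: the 3 whose titles begin with vehicle and the 3 whose titles begin with sham, 6 of the 12 libraries of the series. The animals were C57BL/6J mice, with no genetic change named in the labels. The vehicle group had transient middle cerebral artery occlusion (tMCAO) with PBS, the sham group had sham surgery with PBS, and PBS is therefore common to both. The other 6 libraries come from occluded mice treated with SN-011, which inhibits the innate immune protein STING, and enter here only as an alternative source of the spread. The sources used here do not give age, sex, the length of the occlusion, the time between surgery and tissue collection or the hemisphere taken. Whether replicates are separate mice is not stated in the labels, so p-values measure only the spread between these samples.

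In tMCAO a filament blocks the artery that feeds the striatum and is then withdrawn, which leaves an ischaemic core in the striatum and, in larger strokes, the overlying cortex. Depolarised and stressed cells switch on immediate early genes such as those of the Fos, Egr and NR4A families within a short time, stress hormones act through the glucocorticoid receptor on genes such as Sgk1 and Per1, and microglia, astrocytes and infiltrating leukocytes respond later. The blood-brain barrier, formed by endothelial cells and the pericytes and smooth muscle cells around them, is opened by the same injury.

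The 6 libraries held 15806076 to 17362817 counted reads, with 5.16% to 6.82% from mitochondrially encoded genes. Expression is given below as TMM-scaled CPM, the counts of a gene relative to the scaled size of its library, always in the order replicate 1, 2 and 3, and all tests are edgeR's quasi-likelihood test on the counts of these 6 libraries with n = 3 per group. The tables listed 54532 genes, and 17130 passed the filter on low counts and were tested. The tissue label held in every library. Genes of striatal projection neurons, the spiny neurons that make up most of the striatum, summed to 23015, 22808 and 21889 CPM in vehicle and 23360.0, 21472 and 21614 in sham. Drd1, the dopamine receptor of the direct pathway, stood at 341, 350.1 and 284 in vehicle against 303, 281 and 298 in sham, and Drd2, that of the indirect pathway, at 374, 392 and 357 in vehicle against 376, 338 and 333 in sham. Genes of tissue beside the striatum varied within both groups. Ttr, the thyroid hormone carrier made by the choroid plexus, stood at 1154, 2336 and 1906 in vehicle against 2198, 1065 and 71.1 in sham, with sham replicate 3 far below the others. Slc17a7, the vesicular glutamate transporter of cortical neurons, stood at 37.1, 13.9 and 246 in vehicle against 56.3, 286 and 185 in sham, high in vehicle replicate 3 and in sham replicates 2 and 3. The chi-square of counts over its degrees of freedom was 12.3 and 19.04 in the pairs of vehicle libraries that include replicate 3, 6.86 between vehicle replicates 1 and 2, and 4.79 to 8.85 between pairs of sham libraries. On the first principal component of log2 CPM, which held 31.98% of the variance, vehicle replicates 1 and 2 lay at 13.8 and 37.2, vehicle replicate 3 at -9.61 and the sham libraries between -20.7 and -1.09. Vehicle replicate 3 stood apart on the second component (22.4% of the variance), at 35.1.

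Of the genes tested, 16 differed between vehicle and sham at a Benjamini-Hochberg adjusted p under 0.05 (0.0934% of genes tested), 12 higher in vehicle (0.0701%) and 4 lower (0.0234%). The 12 higher genes were Nr4a3, Sgk1, Per1, Tiparp, Fosl2, Shisa2, Frmd6, Slc25a25, Peli1, Htr1b, Rnd3 and the pseudogene Gm10925, and the lower ones included Cxcl12, Hipk2 and Shc3. Before adjustment, 1335 genes (7.79%) had a p under 0.05, which were 4.22% of genes higher and 3.57% lower in vehicle, and for 2315 genes (13.5%) the 3 vehicle values lay wholly above or wholly below the 3 sham values. The count of called genes differed between fits. A fit of all 12 libraries called 0 genes, with 467 at an unadjusted p under 0.05 and a smallest adjusted p of 0.0848. On the 6 libraries, DESeq2 called 90 genes (52 higher and 38 lower), with 15 of the 16 among them, and limma voom with quality weights called 91 (51 higher and 40 lower), with all 16 among them. Without vehicle replicate 3 the edgeR count was 185 (69 higher and 116 lower), and the 16 genes were kept. Without sham replicate 1 it was 2, without sham replicate 2 it was 1, without sham replicate 3 it was 12, without vehicle replicate 1 it was 4 and without vehicle replicate 2 it was 5. Only Nr4a3 was called in each of these 6 fits. The other 15 genes lost the call in at least 1 of them, with a highest adjusted p of 0.0818 for Sgk1 and up to 0.422 for Peli1, Htr1b and Rnd3 (edgeR).

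**Figure D1:**
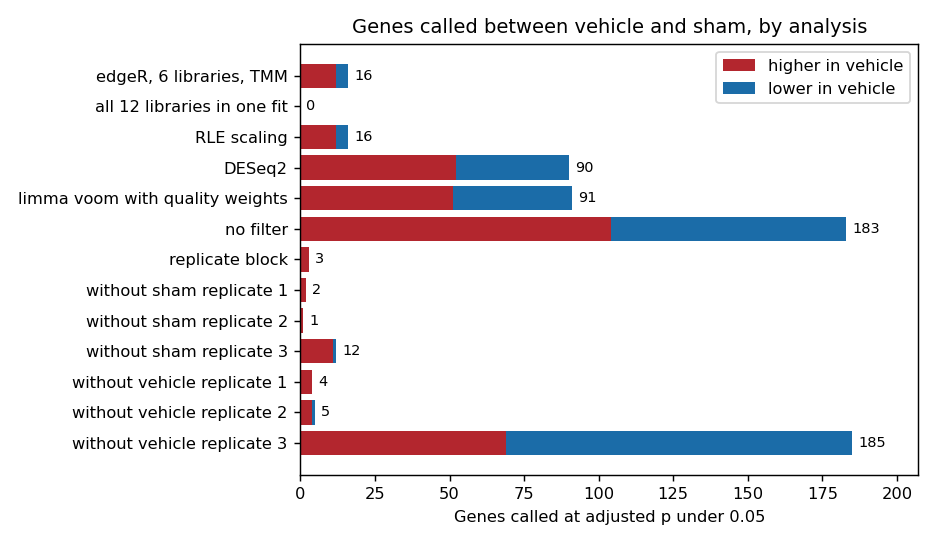
Number of genes called at an adjusted p under 0.05 in each fit, as stacked bars for higher and lower in vehicle. The count runs from 0 in the fit of all 12 libraries to 185 without vehicle replicate 3, and is 16 in the 6 libraries with none left out.

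The clearest increase was in Nr4a3, an orphan nuclear receptor transcribed as an immediate early gene (NOR-1; chromosome 4, 48045153 to 48086447). It stood at 58.4, 58.6 and 51.7 CPM in vehicle replicates 1 to 3 against 18.3, 18.7 and 18.0 in sham replicates 1 to 3. The 3 vehicle libraries lay close together and far above the 3 sham libraries, which barely differed from each other. The log2 fold change was 1.62 (SE 0.087), with an adjusted p of 2.66e-05 by edgeR. Fosl2, a Fos-family partner in the AP-1 transcription factor (chromosome 5, 32135801 to 32157842), stood at 73.8, 63.9 and 59.0 CPM in vehicle and 23.7, 19.5 and 35.6 in sham. Every vehicle library was above every sham library, with sham replicate 3 the highest of its group. Its log2 fold change was 1.32 (SE 0.18) (adjusted p = 0.0272, edgeR), and without vehicle replicate 1 the adjusted p was 0.142. Tiparp, a mono-ADP-ribosyltransferase induced by the aryl hydrocarbon receptor (chromosome 3, 65528410 to 65555518), rose from 15.9, 16.9 and 18.3 CPM to 34.0, 42.9 and 30.02, a log2 fold change of 1.07 (SE 0.13) (adjusted p = 0.0232, edgeR).

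Sgk1, a kinase induced by glucocorticoids (chromosome 10, 21882184 to 21999903), stood at 188, 171 and 139 CPM in vehicle replicates 1 to 3 against 80.4, 75.0 and 77.8 in sham replicates 1 to 3. All vehicle libraries were above all sham libraries, and vehicle replicate 1 was the highest of the 6. Its log2 fold change was 1.10 (SE 0.10) with an adjusted p of 0.00396 (edgeR), which became 0.0818 without sham replicate 2. Per1, a repressor of the circadian clock that is also an immediate early and a glucocorticoid-responsive gene (chromosome 11, 69095217 to 69109960), stood at 199, 209 and 211 CPM in vehicle and 102, 99.8 and 131 in sham. The vehicle libraries lay close together and did not overlap with sham, of which replicate 3 was the highest. The log2 fold change of Per1 was 0.89 (SE 0.10) (adjusted p = 0.0167, edgeR), and the adjusted p was 0.112, 0.145 and 0.0929 without sham replicate 1, sham replicate 2 or vehicle replicate 1.

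Start-site sequences were examined for letters bound by the transcription factors that drive such genes, and 5 windows are printed here because they hold them in genes of the comparison. The windows are from RefSeq (GRCm38.p6), 300 bases long, from 250 bases before to 50 after a transcript's start, 32851 in all, of which 22 belong to 13 of the 16 called genes. The motifs and the windows shown were chosen after the called genes were known. TGACG, the core of the cAMP response element (CRE), was searched on both strands, as were the full CRE TGACGTCA, which contains it on each strand, and AGAACA followed after any 3 bases by TGTTCT, the palindrome bound by the glucocorticoid receptor. TGACG occurred in 20.8% of all windows and in 6 of the 22 windows of called genes, which belong to 5 of the 13 genes. These are Nr4a3, Sgk1, Per1 and Slc25a25, called higher in vehicle, and Cxcl12, called lower. The full CRE occurred in 1.79% of all windows and in 1 of the 22, a Slc25a25 start. The glucocorticoid palindrome occurred in 3 windows of the 32851 (0.00913%), 1 of which is a Sgk1 start. CACGTG, the E-box of the clock, was in 7.15% of all windows and in 3 of the 22, which belong to 3 genes, and AAAGGTCA, the element bound by NR4A monomers, was in 1.51% and in 0 of the 22. A match is a description of letters, not evidence of binding. Nr4a1, which is a family member of Nr4a3 and was not called, is included for comparison. Capitals mark TGACG or its reverse complement CGTCA in Nr4a3 (chr4:48045055-48045354, plus strand, 4 matches, 3 on the gene's strand), Nr4a1 (chr15:101266596-101266895, plus strand, 4 matches, all on the other strand) and Per1 (chr11:69099902-69100201, plus strand, 1 match). They mark TGACGTCA in Slc25a25 (chr2:32424017-32424316, minus strand) and the glucocorticoid palindrome in Sgk1 (chr10:21993640-21993939, plus strand).
Nr4a3: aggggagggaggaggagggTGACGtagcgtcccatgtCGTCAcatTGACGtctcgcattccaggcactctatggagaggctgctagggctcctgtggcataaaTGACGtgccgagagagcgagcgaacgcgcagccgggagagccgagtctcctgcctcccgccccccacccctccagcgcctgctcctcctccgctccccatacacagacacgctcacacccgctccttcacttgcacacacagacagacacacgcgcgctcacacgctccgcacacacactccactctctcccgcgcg
Nr4a1: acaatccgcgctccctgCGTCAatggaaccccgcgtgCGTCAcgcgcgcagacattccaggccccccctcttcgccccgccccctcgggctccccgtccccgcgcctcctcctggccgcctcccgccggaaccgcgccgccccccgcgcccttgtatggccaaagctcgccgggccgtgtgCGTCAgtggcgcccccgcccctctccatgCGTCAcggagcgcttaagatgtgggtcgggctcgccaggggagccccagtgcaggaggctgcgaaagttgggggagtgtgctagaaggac
Per1: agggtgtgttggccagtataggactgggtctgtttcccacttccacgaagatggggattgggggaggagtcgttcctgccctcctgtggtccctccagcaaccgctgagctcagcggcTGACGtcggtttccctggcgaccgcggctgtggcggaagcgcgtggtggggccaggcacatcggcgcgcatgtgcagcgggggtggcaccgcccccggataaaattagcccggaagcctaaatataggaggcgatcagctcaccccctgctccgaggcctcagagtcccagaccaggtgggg
Slc25a25: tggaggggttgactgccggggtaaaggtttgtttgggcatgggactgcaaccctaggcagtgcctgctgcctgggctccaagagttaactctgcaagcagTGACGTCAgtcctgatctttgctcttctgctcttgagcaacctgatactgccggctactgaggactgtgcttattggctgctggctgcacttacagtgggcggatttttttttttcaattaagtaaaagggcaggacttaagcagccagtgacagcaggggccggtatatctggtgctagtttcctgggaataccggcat
Sgk1: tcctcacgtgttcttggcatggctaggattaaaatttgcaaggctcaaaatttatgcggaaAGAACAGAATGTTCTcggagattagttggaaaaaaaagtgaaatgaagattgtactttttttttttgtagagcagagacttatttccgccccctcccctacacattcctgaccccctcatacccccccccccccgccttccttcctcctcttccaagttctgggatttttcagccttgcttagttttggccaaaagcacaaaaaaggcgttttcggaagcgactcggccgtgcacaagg

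In the Nr4a3 window the 4 matches begin 231, 213, 205 and 147 bases before the start. Those of Nr4a1 begin 233, 213, 69 and 40 bases before it. The Per1 match lies 132 bases before the start of one of 2 Per1 windows, the CRE of Slc25a25 150 bases before one of its 3, and the palindrome of Sgk1 189 bases before one of its 6. The Per1 window not printed also holds TGACG, 246 bases before its start.

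The remaining genes called higher have varied roles. Slc25a25, a calcium-regulated ATP-Mg carrier of mitochondria (chromosome 2, 32414487 to 32451445), stood at 82.9, 82.4 and 81.3 in vehicle against 52.9, 47.4 and 58.4 in sham. The vehicle libraries were nearly equal and all above sham. Its log2 fold change was 0.64 (SE 0.084) (adjusted p = 0.0244, edgeR), and Naif1 lies on the opposite strand within it. Shisa2, a modulator of FGF and Wnt signalling (chromosome 14, 59625308 to 59631660), stood at 20.3, 18.8 and 16.9 in vehicle against 8.93, 9.94 and 9.26 in sham, a log2 fold change of 0.99 (SE 0.13) (adjusted p = 0.0232, edgeR). Frmd6, a cortical scaffold upstream of Hippo signalling (chromosome 12, 70825514 to 70902234), stood at 39.6, 37.6 and 36.7 in vehicle against 23.1, 23.4 and 25.1 in sham, a log2 fold change of 0.67 (SE 0.086) (adjusted p = 0.0232, edgeR). In both genes the gap between the groups was wider than the range within either. Rnd3 (chromosome 2, 51130438 to 51149111) stood at 31.3, 37.5 and 30.3 in vehicle against 16.2, 17.3 and 21.4 in sham, a log2 fold change of 0.85 (SE 0.13). Htr1b, the serotonin receptor of striatal output terminals (chromosome 9, 81628291 to 81633828), stood at 95.6, 97.6 and 86.0 in vehicle against 62.3, 59.9 and 69.0 in sham, a log2 fold change of 0.55 (SE 0.082). Peli1, a ubiquitin ligase of Toll-like receptor signalling (chromosome 11, 21091291 to 21150323), stood at 77.9, 79.1 and 71.4 in vehicle against 55.0, 54.3 and 54.4 in sham, a log2 fold change of 0.48 (SE 0.072). For Rnd3, Htr1b and Peli1 the adjusted p was 0.0453 (edgeR), just under the threshold, and without sham replicate 2 it was 0.422. Reads of D430036J16Rik on the other strand of Htr1b, and of 4931440P22Rik on that of Tiparp, cannot be told from those genes without the strand setting. Gm10925, an unprocessed pseudogene whose reads may be split with near-identical copies, stood at 109.8, 111 and 111 in vehicle against 74.7, 69.9 and 56.5 in sham, a log2 fold change of 0.72 (SE 0.097) (adjusted p = 0.0247, edgeR).

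Cxcl12, the chemokine that binds CXCR4 and is made in brain chiefly by vascular cells and some neurons (chromosome 6, 117168535 to 117181367), fell in vehicle. It stood at 72.0, 66.0 and 70.9 CPM in vehicle replicates 1 to 3 against 106, 98.6 and 111 in sham replicates 1 to 3. The ranges of the groups were far apart, and the log2 fold change was -0.59 (SE 0.075) with an adjusted p of 0.0232 (edgeR), or 0.163 without sham replicate 1. Hipk2, a kinase of p53 signalling (chromosome 6, 38694390 to 38876165), stood at 77.6, 88.1 and 71.0 in vehicle against 130.2, 132 and 118 in sham, a log2 fold change of -0.68 (SE 0.090) (adjusted p = 0.0244, edgeR), and part of Tbxas1 lies on its opposite strand. Shc3, a neuronal adaptor of receptor tyrosine kinases (chromosome 13, 51431041 to 51569419), stood at 48.3, 45.2 and 54.9 in vehicle against 86.3, 76.0 and 71.4 in sham, a log2 fold change of -0.65 (SE 0.097) (adjusted p = 0.0453, edgeR). For these genes too, each vehicle library lay below each sham library.

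**Figure D2:**
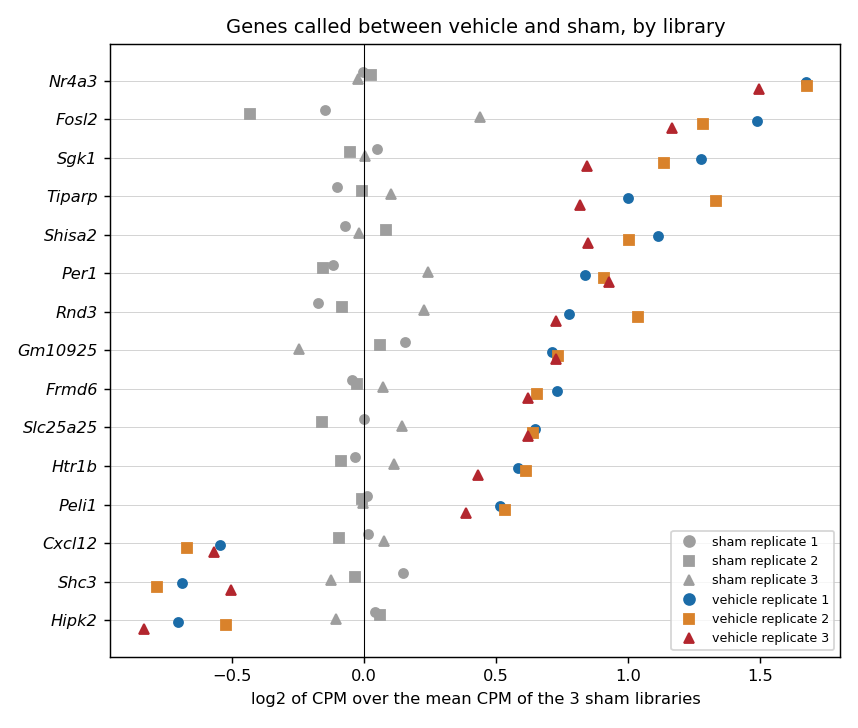
Expression of 15 of the 16 called genes in each of the 6 libraries, as the log2 of CPM over the gene's mean CPM in sham. Points are libraries. Nr4a3 (log2 fold change 1.62) lies farthest to the right, and in each gene the vehicle and sham points do not overlap.

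The immediate early genes were divided. Of 36 listed genes 35 were tested, of which 4 were called higher (Nr4a3, Per1, Tiparp and Fosl2) and 0 lower, 8 lay wholly above sham (22.9%, against 7.19% of all genes) and 1 wholly below. The list's median log2 fold change was 0.13 (0.039 to 0.31 with 1 library left out in turn), against 0.0059 for all genes tested. Its median deviation from the sham mean was 0.16, 0.086 and 0.25 in the vehicle libraries and -0.11, -0.082 and 0.26 in the sham libraries. Sham replicate 3 was thus as high as vehicle. Without it the list's median was 0.31 and 6 members were called, and without sham replicate 1, sham replicate 2 or vehicle replicate 1 the called members were 1 each time. Without vehicle replicate 3, edgeR called 4 higher and 3 lower. On the 6 libraries 10 higher and 3 lower had an unadjusted p under 0.05 (edgeR). DESeq2 called 7 higher and 1 lower, and voom 6 higher and 0 lower. Nr4a1, the NR4A receptor also called Nur77, stood at 239, 221 and 203 in vehicle against 66.4, 67.8 and 172 in sham, and Fos, the founding AP-1 subunit, at 22.2, 23.6 and 20.6 in vehicle against 11.9, 16.6 and 41.1 in sham. For Nr4a1 sham replicate 3 came near the vehicle level, and for Fos it was the highest library of all. Arc, which regulates AMPA receptors at synapses, stood at 219, 204 and 203 in vehicle against 105, 106 and 252 in sham, and Egr1, a zinc finger factor, at 579, 612 and 486 in vehicle against 363, 398 and 518 in sham, and the groups overlapped for both. Neither Fos, Arc, Egr1 nor Nr4a1 was called (adjusted p = 0.982, 0.748, 0.485 and 0.320, edgeR). The log2 fold change of Fos was -0.067, and with each library left out it ran from -0.39 to 0.63. Nr4a2 stood at 4.34, 1.80 and 31.1 in vehicle against 6.65, 24.0 and 35.3 in sham, with the lowest values in the libraries with least Slc17a7. The part of cortical tissue in it was not tested.

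Other early genes with separated groups were not called by edgeR on the 6 libraries. Sik1, a kinase induced by cAMP, stood at 26.8, 26.9 and 30.1 in vehicle against 16.7, 14.9 and 20.7 in sham (adjusted p = 0.120, edgeR). Klf2, a factor induced by flow in endothelium, stood at 14.8, 10.9 and 16.4 in vehicle against 8.52, 6.39 and 8.91 in sham, and Dusp5, a nuclear ERK phosphatase, at 16.1, 14.1 and 15.1 in vehicle against 6.01, 9.42 and 11.2 in sham. Each of these was higher in every vehicle library. Npas4, a factor that neurons switch on with calcium entry, ran the other way, at 49.7, 39.5 and 30.1 in vehicle against 64.4, 62.7 and 84.8 in sham. All 3 vehicle libraries were below all 3 sham libraries, with a log2 fold change of -0.83 (SE 0.17) and an adjusted p of 0.164 (edgeR).

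Most genes known to be induced by glucocorticoids had positive values. All 16 listed genes were tested, 1 was called (Sgk1, higher), 7 lay wholly above sham (43.8%, against 7.19% of all genes) and 0 below, and 15 had a positive log2 fold change. The list's median was 0.36. The vehicle libraries had median deviations of 0.38, 0.42 and 0.25, and the sham libraries -0.048, 0.055 and -0.0092. Tsc22d3, the anti-inflammatory leucine zipper protein GILZ, stood at 49.4, 50.9 and 44.0 in vehicle against 32.6, 38.3 and 38.3 in sham (log2 fold change 0.40 (SE 0.094), adjusted p = 0.255, edgeR). Nfkbia, the inhibitor of NF-kappaB, stood at 24.5, 21.4 and 17.6 in vehicle against 14.3, 12.96 and 17.5 in sham, and Map3k6, a stress kinase, at 3.62, 3.54 and 3.44 in vehicle against 2.39, 2.4998 and 1.57 in sham. Angptl4, a lipoprotein lipase inhibitor, stood at 0.904, 1.92 and 1.44 in vehicle against 0.584, 0.756 and 0.583 in sham. Every vehicle library was above every sham library in all 4 genes, though by little in Nfkbia between vehicle replicate 3 and sham replicate 3.

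The list of circadian clock genes does not hold Per1, which was called and is counted above with the immediate early genes. Its 17 genes were all tested and 0 were called (edgeR; 1 higher and 1 lower at an unadjusted p under 0.05; DESeq2 and voom called 0). Of these 17 genes, 1 lay wholly above sham (5.88%, against 7.19% of all genes) and 3 wholly below (17.6%, against 6.32%). Their median log2 fold change was 0.0015 (-0.042 to 0.033 with 1 library left out in turn). Per2, the paralogue of Per1, stood at 59.9, 65.1 and 68.1 in vehicle against 52.4, 51.0 and 53.7 in sham, higher in every vehicle library, and Nr1d1, the repressor REV-ERB alpha, at 81.5, 85.5 and 86.6 in vehicle against 98.2, 98.4 and 102 in sham, lower in every one. The opposed values of Per2 and Nr1d1 were small (log2 fold changes 0.30 and -0.23) beside that of Per1.

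Vascular genes lay below sham in small, repeated differences. All 21 listed endothelial genes were tested, 12 lay wholly below sham (57.1%, against 6.32% of all genes) and 0 above, 17 had a negative log2 fold change, and the median was -0.23. In bulk tissue, fewer cells of a type and less RNA per cell cannot be told apart. None was called by edgeR, 0 higher and 9 lower reached an unadjusted p under 0.05, and DESeq2 called 0 higher and 4 lower, voom 0 higher and 2 lower, and edgeR without vehicle replicate 3 0 higher and 2 lower. Cldn5, the main tight-junction protein of brain endothelium, stood at 30.6, 25.7 and 35.5 CPM in vehicle replicates 1 to 3 against 51.5, 45.3 and 45.6 in sham replicates 1 to 3. The highest vehicle library was below the lowest sham library, with a log2 fold change of -0.63 (SE 0.12) and an adjusted p of 0.105 (edgeR). Abcb1a, the P-glycoprotein efflux pump, stood at 36.2, 35.4 and 32.8 in vehicle against 46.6, 46.5 and 47.1 in sham (log2 fold change -0.43 (SE 0.077), adjusted p = 0.105, edgeR). The VEGF receptors Flt1 and Kdr were also lower in every vehicle library. Flt1 stood at 92.7, 90.1 and 78.5 in vehicle against 118, 113 and 109 in sham, and Kdr at 21.4, 23.1 and 18.6 in vehicle against 37.1, 31.7 and 27.3 in sham. Pecam1, an adhesion molecule of all endothelium, differed less, at 21.8, 23.8 and 21.7 in vehicle against 25.9, 26.7 and 24.5 in sham.

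Pericyte, smooth muscle and matrix genes were lower in part. All 21 listed genes were tested, 14 had a negative and 7 a positive log2 fold change, 10 lay wholly below sham (47.6%, against 6.32% of all genes) and 1 wholly above, and the median log2 fold change was -0.25. None was called by edgeR, 1 higher and 9 lower reached an unadjusted p under 0.05, and DESeq2 called 1 higher and 4 lower, voom 0 higher and 4 lower, and edgeR without vehicle replicate 3 0 higher and 5 lower. Pdgfrb, the growth factor receptor of pericytes, stood at 33.7, 30.5 and 35.9 in vehicle against 44.5, 44.2 and 43.5 in sham. Myh11, the myosin of smooth muscle, stood at 6.51, 5.21 and 5.94 in vehicle against 10.1, 9.999 and 9.21 in sham, and Acta2, its actin, at 7.23, 6.70 and 6.00 in vehicle against 9.81, 11.1 and 9.73 in sham. Fn1, fibronectin, stood at 47.1, 48.5 and 42.8 in vehicle against 66.0, 64.5 and 61.3 in sham (log2 fold change -0.47 (SE 0.077), adjusted p = 0.0688, edgeR). Col3a1, a fibrillar collagen, stood at 1.87, 1.86 and 1.25 in vehicle against 4.49, 3.20 and 4.02 in sham, the largest difference of the list (log2 fold change -1.23 (SE 0.25)). In each of these genes no vehicle library reached the lowest sham library. Of the 7 genes with positive values only Anxa2, a membrane-binding protein also made by reactive glia, lay wholly above sham, at 8.92, 10.7 and 10.9 in vehicle against 5.55, 6.69 and 6.35 in sham. Sox18, an endothelial transcription factor outside both lists, stood at 6.15, 7.70 and 7.94 in vehicle against 15.5, 13.9 and 12.3 in sham (adjusted p = 0.0688, edgeR).

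The 5 red blood cell genes, all with a positive log2 fold change, summed to 155, 144 and 141 CPM in vehicle and 102, 69.9 and 105 in sham. Of the 5, 3 lay wholly above sham (60.0%, against 7.19% of all genes), with a median log2 fold change of 0.65. None was called by edgeR, 3 higher and 0 lower had an unadjusted p under 0.05, and DESeq2 and voom each called 2, both higher, and edgeR without vehicle replicate 3 called 1. Hba-a1, alpha globin, stood at 60.1, 51.8 and 68.3 in vehicle against 42.6, 30.5 and 41.4 in sham (adjusted p = 0.172, edgeR), and the globin genes are near-identical copies whose split is uncertain. The groups overlapped for Hba-a2, at 9.94, 6.33 and 7.32 in vehicle against 8.41, 5.52 and 8.86 in sham. The part of retained blood in the vascular values was not tested.

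Of 15 genes of monocytes and border macrophages, the cells that lie along vessels and in the meninges, 5 were tested. Of these, 3 lay wholly below sham (60.0%, against 6.32% of all genes) and 0 above. The log2 fold change was negative in 3 and positive in 2 (highest 0.23), with a median of -0.47. None was called by edgeR, 0 higher and 3 lower had an unadjusted p under 0.05, and DESeq2 and voom each called 1, lower, as did edgeR without vehicle replicate 3. Mrc1, the mannose receptor of perivascular macrophages, stood at 1.81, 2.42 and 1.38 in vehicle against 3.91, 2.79 and 2.91 in sham (adjusted p = 0.525, edgeR). F13a1, the clotting factor XIII chain that these cells make, stood at 0.663, 1.05 and 1.00 in vehicle against 2.22, 1.45 and 1.34 in sham (adjusted p = 0.576, edgeR). The third gene below sham was Fn1, which is in the mural list too and whose log2 fold change is the median of this list. Cd163, a scavenger receptor of border macrophages, overlapped between the groups, with 273, 289 and 193 counts in vehicle and 239, 238 and 204 in sham. The other 10 genes were below the filter on low counts, among them Ccr2, the receptor of inflammatory monocytes, with 9, 21 and 3 counts in vehicle and 10, 11 and 10 in sham.

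**Figure D3:**
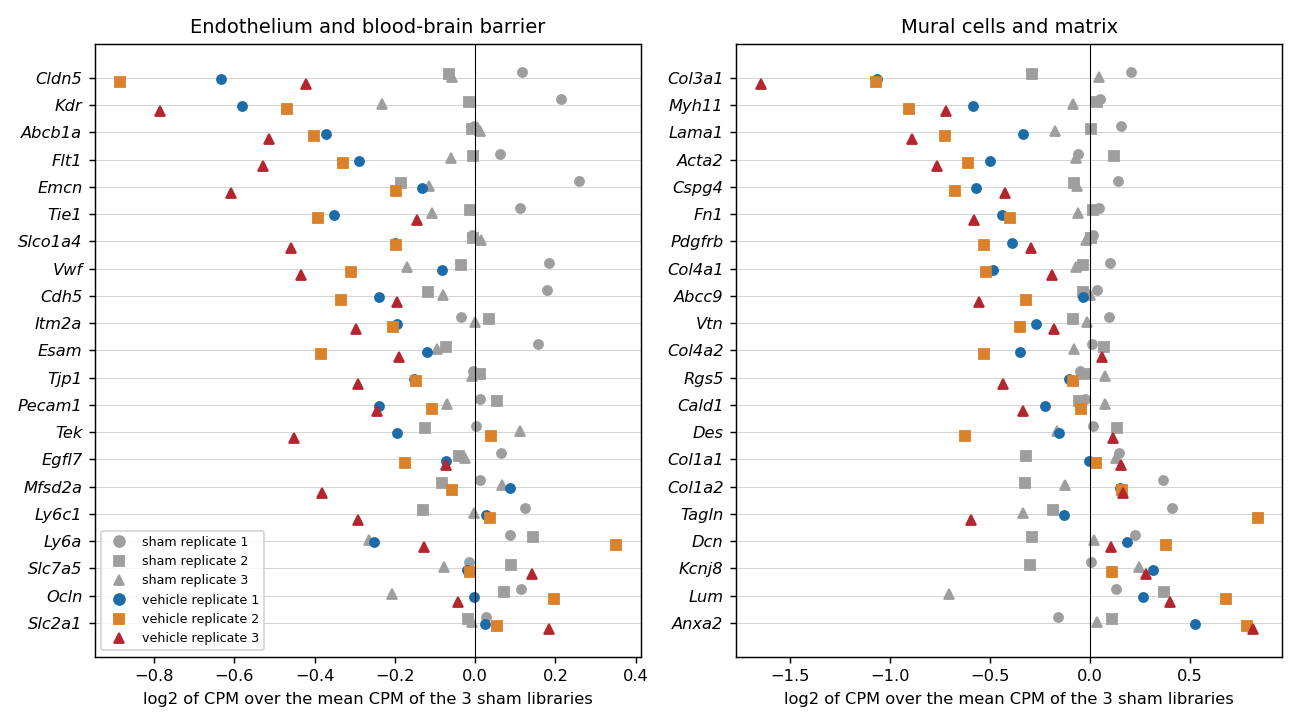
Endothelial and mural genes in each of the 6 libraries, as the log2 of CPM over the gene's mean CPM in sham. Points are libraries. All 3 vehicle points lie below all 3 sham points in 12 of the 21 endothelial genes and 10 of the 21 mural genes, and only Anxa2 has all 3 above.

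Among the genes with the smallest p values in the lower direction, several came close without being called. Hivep2, a zinc finger repressor of neurons, stood at 274, 291 and 259 in vehicle against 359, 378 and 371 in sham. Rasgef1b, a Ras exchange factor, stood at 111, 104 and 94.5 in vehicle against 135, 144 and 148 in sham, Dio2, the thyroid hormone deiodinase of astrocytes, at 70.1, 72.8 and 63.8 in vehicle against 104, 98.8 and 88.7 in sham, and Homer2, a scaffold of metabotropic glutamate receptors, at 13.3, 13.7 and 16.1 in vehicle against 20.4, 26.2 and 24.3 in sham. Apcdd1, a Wnt inhibitor enriched in brain endothelium, stood at 15.6, 20.4 and 17.6 in vehicle against 27.6, 30.5 and 29.4 in sham. The adjusted p of these 5 genes was 0.0610, 0.0757, 0.0757, 0.105 and 0.0684 (edgeR), and their groups did not overlap.

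Genes of resting astrocytes had small values of either sign, and those of reactive astrocytes were high in 1 library. Of 16 resting astrocyte genes, all tested, 10 had a negative and 6 a positive log2 fold change, with a median of -0.084 (-0.13 to -0.052 with 1 library left out in turn). Of these genes 5 lay wholly below sham (31.2%, against 6.32% of all genes) and 1 wholly above (6.25%, against 7.19%). None was called (edgeR; 0 higher and 5 lower at an unadjusted p under 0.05; DESeq2 and voom called 0). Kcnj10, the potassium channel Kir4.1, stood at 193, 195 and 193 in vehicle against 225, 233 and 238 in sham, and Slc1a2, the glutamate transporter GLT-1, at 2993, 2999 and 2967 in vehicle against 3481, 3387 and 3229 in sham. Both were below sham in every vehicle library, with log2 fold changes of -0.26 (SE 0.062) and -0.17 (SE 0.062).

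Of 27 listed reactive astrocyte genes 23 were tested, of which 5 lay wholly above sham (21.7%, against 7.19% of all genes) and 0 below, with a median log2 fold change of 0.32. The median deviation was 0.044, 0.11 and 0.70 in vehicle replicates 1 to 3, so that replicate 3 held most of it. Without that replicate the median was 0.097, without vehicle replicate 1 it was 0.58, and without sham replicate 2 it was 0.49. None was called (edgeR; 6 higher and 0 lower at an unadjusted p under 0.05; DESeq2 and voom called 0; edgeR without vehicle replicate 3 called 0 higher and 1 lower, and without a filter on low counts 4 higher and 0 lower). Serpina3n, a secreted protease inhibitor and an early marker of reactive astrocytes, stood at 13.3, 6.89 and 46.0 in vehicle against 3.56, 4.88 and 5.24 in sham. It was above sham in all vehicle libraries and several-fold higher in replicate 3 than in replicates 1 and 2 (adjusted p = 0.304, edgeR). Gfap, the intermediate filament of these cells, stood at 133, 121 and 479 in vehicle against 82.4, 99.7 and 128 in sham, and vehicle replicate 2 lay within the sham range. Vim, vimentin, stood at 50.2, 56.5 and 92.6 in vehicle against 34.8, 45.3 and 39.0 in sham, and Ggta1, a galactosyltransferase, at 7.35, 7.32 and 10.7 in vehicle against 4.14, 4.24 and 5.94 in sham. For both genes all vehicle libraries were above sham, with replicate 3 the highest.

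As a list, activated microglia genes were also highest in vehicle replicate 3. They (20 of 23 tested) had a median of 0.19, or 0.094 without that replicate, and deviations of -0.014, 0.16 and 0.42 in the vehicle libraries. Homeostatic microglia genes (16 of 16) had a median of -0.073 (-0.15 to -0.011 with 1 library left out in turn). None of either list was called (edgeR; 3 activated genes higher and 1 homeostatic gene lower at an unadjusted p under 0.05; DESeq2 called 0). The other 3 activated genes were below the filter on low counts, with at most 37 counts in any library. Among them, Clec7a had 7, 17 and 37 counts in vehicle and 5, 3 and 5 in sham, and Cst7 had 3, 11 and 25 and 0, 3 and 0. These genes were chosen after their values were seen and were not tested. Gpnmb, a lysosomal glycoprotein of phagocytes, stood at 1.21, 1.80 and 5.07 in vehicle against 1.17, 1.45 and 0.757 in sham, and Lgals3, galectin-3, at 1.27, 1.24 and 2.88 in vehicle against 0.992, 1.10 and 0.816 in sham. Only vehicle replicate 3 was clearly above the rest for these 2 genes. P2ry12, the ADP receptor of resting microglia, stood at 36.6, 35.7 and 33.1 in vehicle against 43.7, 41.0 and 39.0 in sham, below sham in every vehicle library. Aif1, a general microglial marker, stood at 2.41, 4.03 and 4.57 in vehicle against 3.39, 3.31 and 4.31 in sham.

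C4b, a complement component that astrocytes also make, was the complement gene with the lowest p. It stood at 63.0, 75.6 and 157 in vehicle against 43.0, 40.5 and 44.0 in sham, above sham in each vehicle library and highest in replicate 3 (log2 fold change 1.21 (SE 0.27), adjusted p = 0.215, edgeR). The complement list (14 of 16 tested, 0 called by edgeR, 1 higher and 0 lower at an unadjusted p under 0.05, 0 by DESeq2) had a median of 0.19. Without vehicle replicate 3 the median was -0.13 and edgeR called 1 gene, higher, and without sham replicate 2 the median was 0.12. C1qb, a subunit of the classical pathway's recognition molecule, stood at 34.6, 39.0 and 55.5 in vehicle against 38.6, 33.3 and 38.2 in sham, and C3 at 3.37, 1.49 and 4.57 in vehicle against 1.05, 2.09 and 2.45 in sham, overlapping with sham.

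As a list, interferon-stimulated genes stood above sham in vehicle replicates 2 and 3 and at the sham level in replicate 1. Of 36 listed genes 34 were tested, of which 5 lay wholly above sham (14.7%, against 7.19% of all genes) and 0 below, 33 had a positive log2 fold change, and 0 were called (edgeR; 13 higher and 0 lower at an unadjusted p under 0.05; DESeq2 called 1 higher and 0 lower, voom 0 higher and 0 lower; edgeR without a filter called 5 higher and 0 lower). The median log2 fold change was 0.50, or 0.24 without vehicle replicate 2. Median deviations were -0.046, 0.99 and 0.58 in the vehicle libraries and 0.13, 0.042 and -0.055 in the sham libraries. Irf9, the DNA-binding subunit of the interferon response complex, stood at 17.9, 22.3 and 21.5 in vehicle against 13.5, 14.3 and 13.3 in sham and was above sham in each vehicle library (log2 fold change 0.58 (SE 0.12), adjusted p = 0.172, edgeR). Ifit1, an inhibitor of viral translation, stood at 2.77, 8.63 and 4.32 in vehicle against 2.39, 1.74 and 2.39 in sham, and Isg15, a ubiquitin-like modifier, at 2.17, 2.85 and 3.50 in vehicle against 2.10, 1.98 and 2.16 in sham. Vehicle replicate 2 was the highest for Ifit1.

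The tested genes of the sensor pathway itself showed no such pattern. Of 12 cGAS-STING genes found in the files 9 were tested and 0 called (edgeR; 0 higher and 0 lower at an unadjusted p under 0.05; DESeq2 and voom called 0). Of the 9, 1 lay wholly below sham (11.1%, against 6.32% of all genes) and 0 above. Their median log2 fold change was 0.054 (-0.040 to 0.12 with 1 library left out in turn), and -0.064 with voom. The 3 genes not tested were below the filter on low counts, with at most 27 counts in any library. Among them, Ifi204 had 8, 27 and 24 counts in vehicle and 8, 4 and 9 in sham, higher in vehicle replicates 2 and 3. It was chosen after its values were seen and was not tested. Tmem173, which encodes STING, stood at 3.25, 4.59 and 4.32 in vehicle against 3.74, 4.01 and 3.96 in sham, and Cgas, the DNA sensor upstream of it, at 1.39, 1.61 and 1.44 in vehicle against 1.40, 1.92 and 0.699 in sham. Tbk1, the kinase STING recruits, stood at 46.0, 48.5 and 41.0 in vehicle against 52.3, 48.3 and 47.0 in sham, and its substrate Irf3 at 20.4, 17.004 and 26.5 in vehicle against 19.1, 18.9 and 19.7 in sham. The groups overlapped for these 4 genes. Ifnb1, interferon beta, had 0 counts in all 6 libraries, which allows up to 0.0619 CPM in the vehicle group and 0.0577 in the sham group. That limit covers counting error only.

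Many transcripts of acute inflammation were too scarce to test. Of 24 cytokine and chemokine genes, 15 were below the filter on low counts, with at most 16 counts in any library, and among the 9 tested 0 were called (edgeR; 0 higher and 0 lower at an unadjusted p under 0.05; DESeq2 called 0). Tnf had 0, 0 and 0 counts in the vehicle libraries and 5, 0 and 0 in the sham libraries, Il1b had 6, 7 and 3 and 11, 2 and 4, Il6 had 0, 1 and 1 and 8, 0 and 0, and Ccl2 had 1, 3 and 2 and 5, 0 and 2. No difference in Tnf, Il1b, Il6 or Ccl2 was detectable at this depth. Other members below the filter, chosen after their values were seen and not tested, differed more in their counts. The chemokine Ccl12 had 8, 11 and 10 counts in vehicle and 4, 2 and 4 in sham, Cxcl10, which interferons induce, had 5, 12 and 12 and 4, 5 and 2, and Ccl4 had 1, 6 and 5 and 1, 0 and 0, while Ccl5 had 4, 9 and 5 and 16, 12 and 7. The groups were apart for Ccl12, met at 1 value for Cxcl10 and for Ccl4, both higher in vehicle replicates 2 and 3, and overlapped for Ccl5. Of 10 neutrophil genes 9 were below the filter, with at most 12 counts, and of 16 lymphocyte genes 14, with at most 11. S100a8, the abundant calcium-binding protein of neutrophils, had 5, 1 and 2 counts in vehicle and 1, 4 and 7 in sham. Cd3e, of the T cell receptor complex, had 2, 1 and 1 and 0, 0 and 0.

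Genes that define striatal neurons were near the sham level. All 30 listed projection neuron genes were tested, 3 lay wholly above sham (against 7.19% of all genes) and 0 below, 0 were called (edgeR; 2 higher and 0 lower at an unadjusted p under 0.05; DESeq2 and voom called 0), and the median log2 fold change was 0.020 (-0.0028 to 0.069 with 1 library left out in turn). Ppp1r1b, the dopamine-regulated phosphatase inhibitor DARPP-32, stood at 1491, 1315 and 1663 in vehicle against 1512, 1308 and 1327 in sham. Pdyn, prodynorphin of direct-pathway neurons, stood at 131, 125 and 132 in vehicle against 118, 90.0 and 103 in sham, with every vehicle library above sham (adjusted p = 0.414, edgeR).

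General neuronal genes had small negative values. Of 25 tested, 24 had a negative log2 fold change, 6 lay wholly below sham (24.0%, against 6.32%), 0 were called (edgeR; 0 higher and 6 lower at an unadjusted p under 0.05; DESeq2 and voom called 0), and the median was -0.091 (-0.16 to -0.088 with 1 library left out in turn). Without vehicle replicate 3, edgeR called 1 of them, lower. Grin2b, an NMDA receptor subunit, stood at 444, 476 and 453 in vehicle against 526, 534 and 536 in sham, and Camk2a, a kinase of synaptic plasticity abundant in forebrain, at 1738, 1644 and 1809 in vehicle against 1936, 2003 and 1975 in sham. Nefm, a neurofilament protein of long axons, stood at 157, 162 and 152 in vehicle against 169, 199 and 226 in sham. Each was lower in all vehicle libraries. Cortical projection neuron genes, which express many of the same genes, deviated by -0.46, -0.61 and 0.32 in vehicle and -0.35, 0.28 and 0.38 in sham, and their part in these values was not tested. Pvalb, of fast-spiking interneurons and cortex, stood at 6.27, 3.66 and 8.44 in vehicle against 9.98, 10.9 and 8.91 in sham.

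In the lists of hypoxia and cell stress, edgeR called 0 genes on the 6 libraries. Of 21 hypoxia and glycolysis genes, 3 lay wholly above sham (14.3%, against 7.19% of all genes) and 1 below (4.76%, against 6.32%). At an unadjusted p under 0.05 edgeR gave 3 higher and 0 lower, DESeq2 called 0 higher and 0 lower and voom 1 higher and 0 lower, and edgeR without vehicle replicate 3 called 1, higher. The median was 0.051 (0.0047 to 0.066 with 1 library left out in turn). Vegfa, the endothelial growth factor, stood at 116, 114 and 106 in vehicle against 97.6, 90.8 and 94.3 in sham, and P4ha1, a collagen prolyl hydroxylase, at 85.7, 82.9 and 69.9 in vehicle against 65.0, 63.3 and 65.1 in sham. Adm, the vasodilator adrenomedullin, was scarce, at 1.99, 1.30 and 1.501 in vehicle against 0.233, 1.05 and 0.350 in sham. All 3 were above sham in each vehicle library. Hspa1b, the inducible heat shock protein 70, stood at 1.27, 0.931 and 4.25 in vehicle against 3.79, 3.78 and 2.80 in sham, with vehicle replicate 3 above sham and the other vehicle replicates below it. Without vehicle replicate 3 its log2 fold change was -1.65 (adjusted p = 0.0386, edgeR). The medians of the lists for heat shock, cell death and axon injury were -0.029, 0.089 and -0.039, and 0 members of each were called (edgeR; 1, 0 and 3 members at an unadjusted p under 0.05; DESeq2 called 0). Without vehicle replicate 3, edgeR called 2 heat shock genes and 1 axon injury gene, all lower. Atf3, a stress factor of injured neurons, had 7, 32 and 14 counts in vehicle and 11, 9 and 19 in sham.

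Oligodendrocyte and myelin genes overlapped between the groups in all 18 members tested, with a median of -0.058 (-0.19 to 0.017 with 1 library left out in turn) and 0 called (edgeR; 0 higher and 0 lower at an unadjusted p under 0.05; DESeq2 called 0). Mbp, myelin basic protein, stood at 3961, 2878 and 3478 in vehicle against 3676, 3878 and 4488 in sham. Genes of the subventricular zone, the stem cell niche that borders the striatum, had a median of 0.12 (0.073 to 0.20 with 1 library left out in turn), and Cd24a, of neuroblasts and ependyma, stood at 21.2, 32.5 and 24.5 in vehicle against 14.2, 19.5 and 17.01 in sham, above sham in every vehicle library (adjusted p = 0.320, edgeR). Cell cycle genes (28 tested, 0 called by edgeR, 2 higher and 1 lower at an unadjusted p under 0.05, 0 by DESeq2 and voom) had a median of 0.18, or 0.052 without vehicle replicate 2 and 0.079 without sham replicate 1. Of the 28, 2 lay wholly above sham (7.14%, against 7.19% of all genes) and 1 wholly below (3.57%, against 6.32%). Ccnb1, the mitotic cyclin B1, stood at 2.47, 3.85 and 3.56 in vehicle against 1.05, 1.74 and 1.81 in sham. The list of choroid plexus and ependyma, tissue at the same border, deviated by 0.48, 1.47 and 1.09 in vehicle and 1.44, 0.36 and -1.82 in sham, and their part in the Cd24a and Ccnb1 values was not tested.

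**Figure D4:**
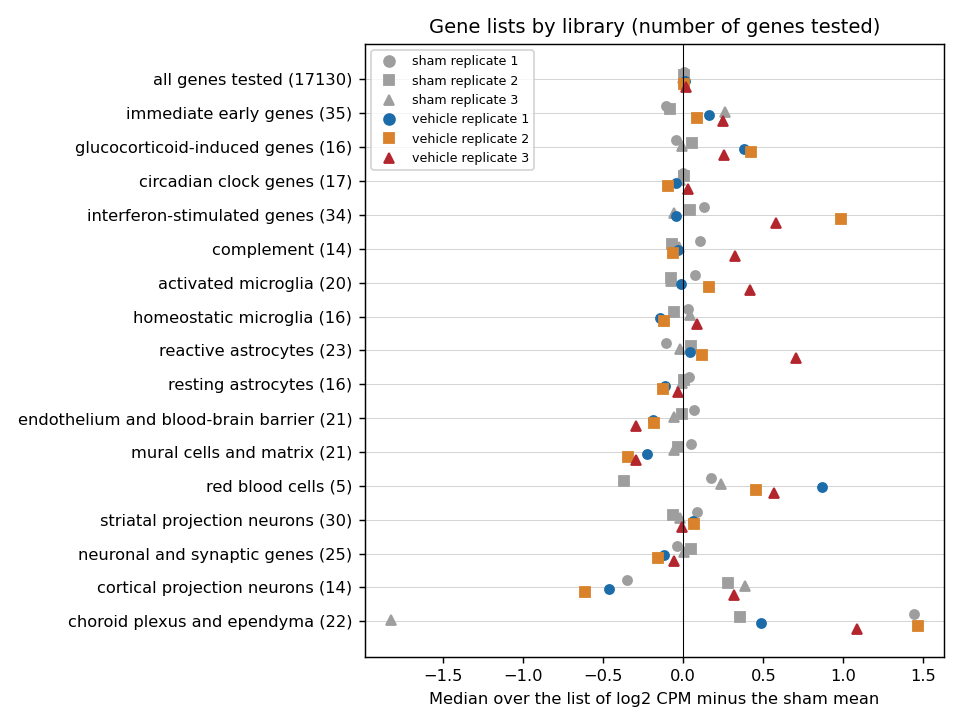
Median deviation of 16 gene lists and of all genes from the sham mean in each of the 6 libraries (log2 CPM, over the members tested, whose number is given in brackets). Points are libraries. Reactive astrocyte genes are highest in vehicle replicate 3 (0.70), interferon-stimulated genes in vehicle replicate 2 (0.99), endothelial genes are below the sham mean in the vehicle libraries, and choroid plexus genes are lowest in sham replicate 3 (-1.82).

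The vehicle libraries differed from each other in which genes stood highest. Over the 15756 genes that averaged 1 CPM or more, vehicle replicates 2 and 3 held the highest value of the 6 libraries for 24.1% and 23.5% of genes and the lowest for 24.8% and 22.7%. Vehicle replicate 1 held 14.0% and 12.2%, near the sham libraries at 11.6% to 13.5% and 13.3% to 13.6%. The genes at which a library lay farthest from the nearest of the other 5 are described here, with no test. In vehicle replicate 3 they were led by Gpx3, a secreted glutathione peroxidase, at 1.87, 2.30 and 13.8 in vehicle against 1.46, 0.872 and 1.98 in sham, followed by Gfap, Serpina3n, Gpnmb and Socs3, the feedback inhibitor of cytokine signalling, at 1.51, 1.43 and 4.19 in vehicle against 0.992, 1.34 and 1.40 in sham. C4b and Lgals3 were also among its 10 leading genes. In vehicle replicate 2 they were led by the clone-named 1700047I17Rik2 at 0.181, 5.34 and 0.375 in vehicle against 0.525, 0.756 and 0.757 in sham and the pseudogene Gm5805 at 2.17, 11.2 and 2.13 in vehicle against 1.11, 1.74 and 1.28 in sham, with Gm18194, Mlf1 and Steap1 also among the 10. The other 5 were Ifi44 at 1.27, 4.59 and 1.31 in vehicle against 1.23, 0.814 and 1.40 in sham, Tgtp1 at 0.964, 3.85 and 0.438 in vehicle against 1.40, 0.639 and 0.583 in sham and Gbp2 at 4.04, 12.2 and 5.503 in vehicle against 4.61, 4.77 and 4.43 in sham, which interferons induce, Nlrc5, the transactivator of MHC class I genes, at 1.63, 6.08 and 2.75 in vehicle against 2.22, 0.872 and 1.63 in sham, and H2-Aa, an MHC class II chain, at 0.964, 2.98 and 0.875 in vehicle against 1.17, 1.22 and 0.757 in sham. Vehicle replicate 1 had no such genes among its leading ones. It lay lowest for Ptgs2, the inducible cyclooxygenase, at 0.964, 2.05 and 3.50 in vehicle against 3.21, 4.07 and 4.66 in sham, and Gbp3, at 3.07, 15.7 and 8.19 in vehicle against 6.89, 7.56 and 7.11 in sham.

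**Figure D5:**
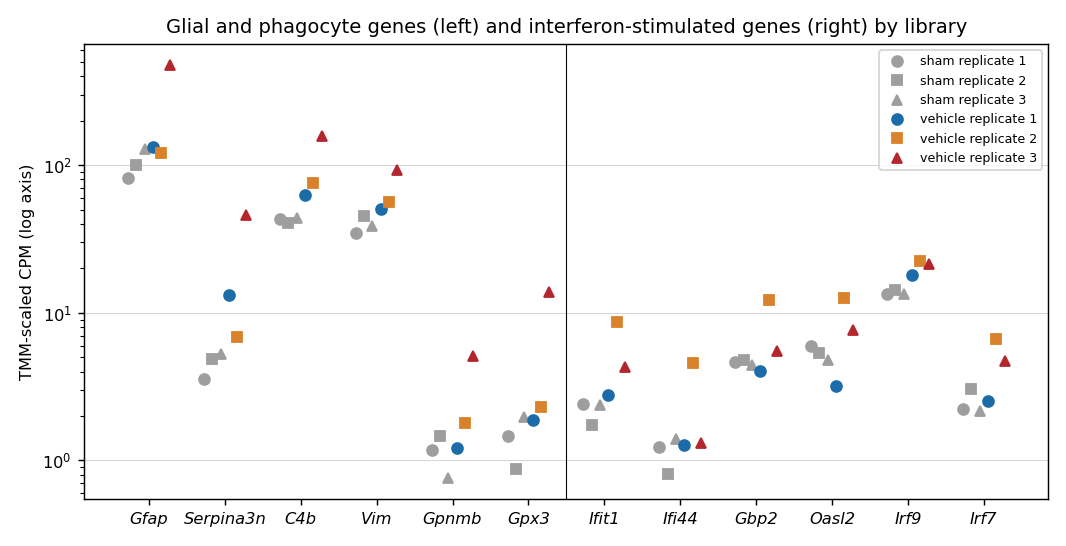
Glial and phagocyte genes (left) and interferon-stimulated genes (right), as CPM on a log axis, with 1 point for each of the 6 libraries. Gfap, Serpina3n and Gpx3 are highest in vehicle replicate 3 (479, 46.0 and 13.8 CPM), and Ifi44 and Gbp2 in vehicle replicate 2 (4.59 and 12.2 CPM).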

How the data were processed

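Per the labels' protocols, libraries of striatal polyA+ RNA were read from both ends. Reads were aligned with HISAT2 to mm10 and counted with featureCounts, per the submitters' processing notes. The versions, the annotation release and whether counting used strand: not given in the sources used here. Each library has a deposited table of raw counts by Ensembl identifier, which the authors left unnormalized as far as the whole numbers show. Groups were taken from the titles. Symbols and GRCm38 positions come from the reference gene tables (GENCODE M21), and for a symbol shared by several identifiers the one with most counts was used.

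The 3 vehicle and 3 sham libraries were analysed with edgeR 4.0.16 (R 4.3.3). The filter was filterByExpr with a minimum count of 10, libraries were scaled by TMM, and group was the only term of the quasi-likelihood model. The p-values of all 17130 genes tested were adjusted by Benjamini-Hochberg, with calls under 0.05. The standard error is the log2 fold change over the root of F. Deviations use log2 CPM with a prior count of 2. The fit was also run on simulated counts with known changes, drawn from the fitted dispersion of each gene. No simulated library stood apart from its group, so that run does not bear on how the count of called genes changes between fits.

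The comparison, the 34 gene lists and the use of the 6 libraries alone were chosen with earlier results of these data known. Genes named are those called, the 10 with the smallest p in each direction among genes of at least 1 CPM without overlap, the 3 smallest p and the defining members of each list, the STING pathway genes, and the 10 genes farthest above or below the others in each library. Clone-named genes are counted but mostly not named. Of the called genes, 1 is counted but not reported here. Lists are described by counts and medians and were not tested as sets. Each library was counted as 1 sample. No pair of replicates agreed within sampling noise, which does not show that replicates are separate mice.

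Alternatives were all 12 libraries in one fit, RLE scaling, DESeq2 1.42.0, limma 3.58.1 voom with quality weights, no filter, the replicate number as a block and each library left out. Figures were drawn with matplotlib in Python.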

Additional observations from a re-analysis of the deposited data

How the results depend on the processing

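The count of 16 called genes stayed at 16 with RLE scaling, was 12 without sham replicate 3, and otherwise moved by more than 1.5 times. It was 0 in the fit of all 12 libraries, 90 with DESeq2, 91 with voom and quality weights and 183 without a filter, and it ran from 1 to 185 with each library left out. The direction of all 16 genes was the same in each of these fits, and the cause of the changing counts was not tested. With the replicate number as a block the count was 3 (Nr4a3, Sgk1 and Per1). Same-numbered sham and vehicle libraries did not deviate together (correlations of -0.018, -0.039 and -0.016), so the numbers were not taken as pairs.

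Of 171 named genes, 16 changed sign under an alternative. With each library left out Tmem173 ran from -0.053 to 0.19 on the log2 scale, Calb2 from -0.015 to 1.14, Csf3r from -0.056 to 0.10, Lck from -0.11 to 0.22, Cd4 from -0.0997 to 0.084, Cgas from -0.17 to 0.49, Irf3 from -0.040 to 0.28 and Hba-a2 from -0.16 to 0.18. Over the same fits Fos ran from -0.39 to 0.63, Aif1 from -0.19 to 0.22, Atf3 from -0.23 to 0.91, Naif1 from -0.12 to 0.061, Gbp3 from -0.36 to 0.73, H2-Aa from -0.19 to 0.90, Tgtp1 from -0.32 to 1.499 and 1700047I17Rik2 from -1.28 to 2.06. With voom Tmem173 was -0.11, Atf3 -0.13, Gbp3 -0.55, 1700047I17Rik2 -0.65 and Fos 0.11, and with the replicate number as a block Fos was 0.12. List medians moved by less than the spread in 396 of 408 refits. The spread is the SD, pooled over the 2 groups, of the list's median deviation in each library. A library that stands apart widens it, so this count does not show that the medians are stable. The interferon median fell from 0.50 to 0.24 without vehicle replicate 2 and still counts as within the spread. So does that of reactive astrocytes, from 0.32 to 0.097 without vehicle replicate 3. The filter leaves genes that reach about 10 counts in too few libraries without a test, among them most cytokine and leukocyte genes. Some of these were high in only part of the vehicle libraries, such as Clec7a and Ifi204, with up to 37 and 27 counts.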

Other observations

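The sham libraries also had genes of their own, described here as values with no test. Sham replicate 3 was lowest by at least 1 on the log2 scale for 54 genes, against 9 and 8 in sham replicates 1 and 2, and its 10 leading low genes were of the choroid plexus. Kcnj13, a potassium channel of that epithelium, stood at 7.53, 3.37 and 0.175 CPM in sham and 3.74, 11.7 and 9.32 in vehicle, and Cldn2, its tight-junction claudin, at 15.2, 6.57 and 0.350 in sham and 11.3, 21.3 and 11.3 in vehicle. Sham replicate 3 was highest for Fos and for Pim1, a kinase induced by cytokines, which stood at 5.08, 5.17 and 9.15 in sham and 3.74, 5.03 and 3.50 in vehicle. Sham replicate 2 was highest for Ighm, the immunoglobulin heavy chain of B cells, at 10.7, 32.1 and 15.3 in sham and 10.8, 11.1 and 13.9 in vehicle, and for Htr1a, a serotonin receptor of hippocampus and septum, at 3.09, 6.10 and 3.09 in sham and 1.69, 1.37 and 2.69 in vehicle. Sham replicate 1 was highest for the mitochondrial gene mt-Atp6, at 212, 56.0 and 112 in sham and 45.7, 99.6 and 84.0 in vehicle.

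In vehicle replicate 2, Rspo2, a Wnt agonist of cortex, stood at 0.603, 0 and 4.57 CPM over the vehicle libraries and 1.23, 5.35 and 3.26 over the sham libraries, lowest where Slc17a7 was also lowest (37.1, 13.9 and 246 in vehicle). Calb2, the calretinin of some interneurons and of thalamus and septum, stood at 2.59, 1.99 and 7.69 in vehicle and 3.04, 1.16 and 2.74 in sham, highest in vehicle replicate 3.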
